A study of Mus musculus with 12 samples.

Results

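The 10 genes S100a4, S100a6, S100a10, S100a11, Anxa1, Anxa2, Vim, Lgals1, Lgals3 and Ahnak were described across naïve and effector memory CD4+ T cells of the mouse spleen. They were chosen by name, as S100 proteins, annexins, galectins and the cytoskeletal proteins that accompany them, and not by a threshold on the values. Earlier results of these data were known when they were chosen. All 10 were among the 17523 genes of the deposited table, and all 10 passed the filter on low values. The proteins work at the inner face of the membrane and in the cytoskeleton. S100 proteins are small proteins that dimerise, most of them calcium sensors. Several attach to annexins, which are proteins that bind acidic phospholipids. S100A10 joins annexin A2 in a tetramer, S100A11 binds annexin A1, and the giant scaffold AHNAK docks on the S100A10 and annexin A2 complex. Vimentin forms intermediate filaments, and galectins are lectins that bind β-galactosides inside and outside the cell. Antigen-experienced T cells are known for higher transcript levels of several of these genes than naïve T cells.

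The cells came from Gr/fr mice. Their Csf2 locus was altered so that the recombinase iCre and a blue reporter, BFP, are made from it alongside the cytokine, and a Rosa26 reporter makes eYFP once iCre has removed a stop sequence. YFP therefore marks cells in which iCre was once driven by the Csf2 locus, and all 4 groups carried both alleles and came from unimmunized animals. CD4+ cells of the spleen were sorted as naïve (CD44-) or effector memory (TEM, CD44hi) and each of these as YFP- or YFP+, with 3 libraries per group and 12 in all. Ages are not given here because the labels do not state them for these libraries, and the labels number the replicates without saying whether libraries with one number came from one animal. The p-values below therefore measure the spread between these libraries.

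Between 40974124 and 57822269 reads per library fell on genes, with a median of 44929388. Values are normalized counts, that is, reads divided by the size factor of the library. The sort on CD44 could be followed in the RNA. Cd44, which encodes the adhesion receptor used in the gate, had 2397 to 3113 in naïve YFP- and 21778 to 22432 in TEM YFP- libraries. Csf2 had 55.9 to 152 normalized counts in TEM YFP+ libraries, and at most 3.94 in every other library. Cd4 and Cd3e were high in all 12 libraries. Transcripts of other cells also differed between the groups. The summed level of 8 conventional dendritic cell markers was 78.3 to 135 in naïve YFP-, 104 to 356 in naïve YFP+, 9495 to 19658 in TEM YFP- and 515 to 1161 in TEM YFP+ libraries. The sum of 10 macrophage and monocyte markers ran from 564 to 1287, 726 to 4418, 10622 to 18122 and 7223 to 12434 in the same order. Naïve YFP+ replicate 2 stood apart from the other naïve libraries, with 4418 for that sum and 232 for the sum of 8 neutrophil markers, which was at most 25.5 in the other naïve libraries. In bulk RNA, more cells of a type and more RNA per cell cannot be told apart.

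All 10 genes were higher in TEM than in naïve cells, in both YFP fractions. In YFP- cells the largest differences were those of S100a4 and S100a6, at 144-fold and 141-fold, followed by Lgals3 at 69.7-fold and Anxa1 at 55.0-fold. Anxa2 (24.0-fold), Ahnak (17.9-fold) and S100a11 (7.63-fold) came next. Lgals1 (3.17-fold), S100a10 (3.15-fold) and Vim (1.80-fold) were already abundant in naïve cells. All fold changes are on the scale of log2 of the normalized count plus 1, which understates the change of genes with few reads. A gene passed where its adjusted p in limma was 0.05 or less, with the Benjamini-Hochberg adjustment over all 15587 genes tested. By this rule 10 of 10 genes were higher among YFP- cells, where 29.9% of all genes tested were higher and 19.9% lower. Among YFP+ cells 10 of 10 were higher too, beside 24.7% of all genes higher and 16.7% lower. These counts, and those that follow, describe the list and are not a test of it. The genes were chosen with earlier results known, and several are known to be higher in antigen-experienced T cells. With the study's further threshold, a log2 fold change of at least 2 in size, 7 of 10 were higher in each fraction. The background was 15.9% higher and 1.73% lower in YFP- cells and 11.3% higher and 1.66% lower in YFP+ cells. The median log2 fold change of the 10 genes was 4.37 in YFP- and 3.94 in YFP+ cells, beside 0.05 and 0.03 over all genes tested. For 10 of 10 genes the lowest TEM library lay above the highest naïve library of the same fraction, while the groups did not overlap for 59% of all genes in YFP- and 48.7% in YFP+ cells. Quantile normalization moved the median of all genes to -0.20 in YFP- and -0.14 in YFP+ cells, and the 10 genes kept their direction and their call.

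**Figure D1:**
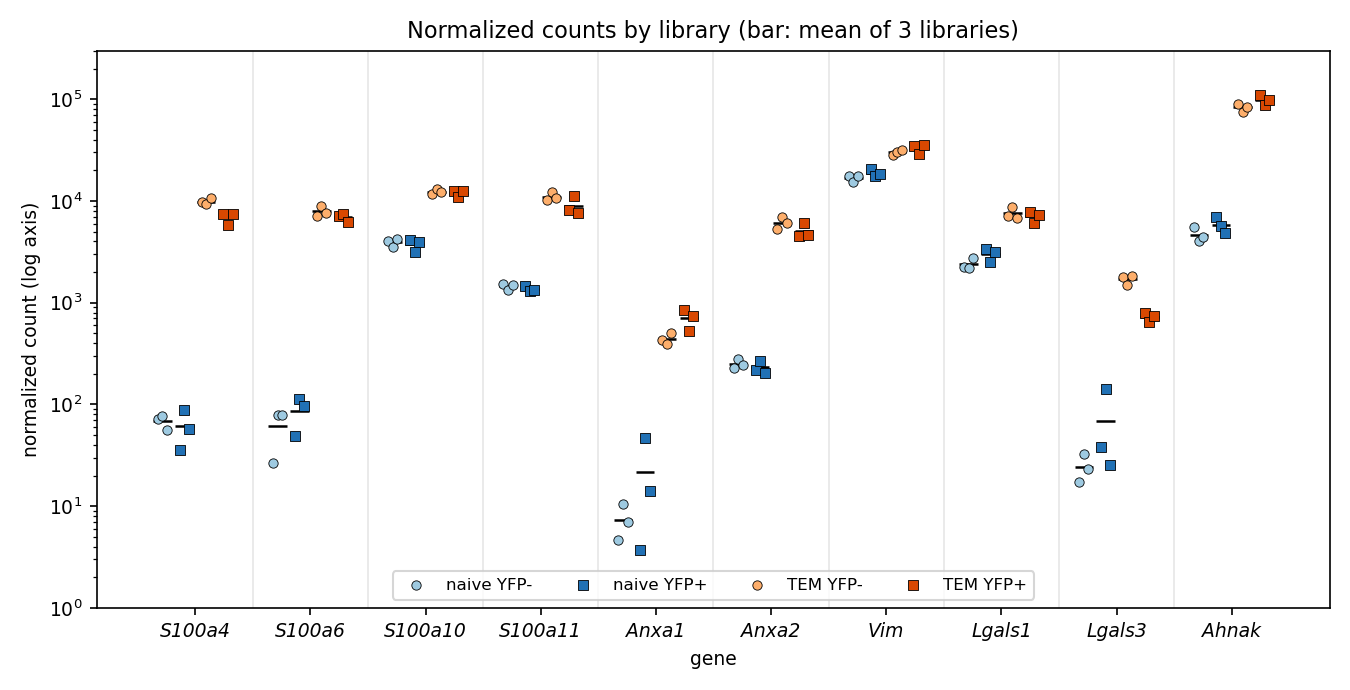
Normalized counts of the 10 genes (x axis) in each of the 12 libraries on a log axis (y axis), with a bar at the mean of each group of 3. In every gene the TEM libraries sit above the naïve libraries, from a narrow gap in Vim to one of about 2 log10 units in S100a4 and S100a6.

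Sequences just before the start sites of the 4 genes with the largest differences are shown because these genes rose together from low naïve levels. RefSeq's table for GRCm38.p6 held a promoter for 8 of the 10 genes. S100a10 and Lgals1 were the others. Each run below is the 250 bases before the annotated start, read 5′ to 3′ on the strand of the gene, with motif matches in capitals.
S100a4, chr3:90603520-90603769, plus strand: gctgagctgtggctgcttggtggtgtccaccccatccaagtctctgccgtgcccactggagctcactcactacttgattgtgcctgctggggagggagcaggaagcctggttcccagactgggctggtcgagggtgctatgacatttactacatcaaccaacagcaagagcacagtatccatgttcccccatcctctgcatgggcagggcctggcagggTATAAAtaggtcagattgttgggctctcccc
S100a6, chr3:90612644-90612893, plus strand: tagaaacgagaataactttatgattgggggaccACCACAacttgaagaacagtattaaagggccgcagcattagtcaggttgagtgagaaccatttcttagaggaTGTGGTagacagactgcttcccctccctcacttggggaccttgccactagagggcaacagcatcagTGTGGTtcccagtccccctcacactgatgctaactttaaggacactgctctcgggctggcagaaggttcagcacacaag
Lgals3, chr14:47373610-47373859, plus strand: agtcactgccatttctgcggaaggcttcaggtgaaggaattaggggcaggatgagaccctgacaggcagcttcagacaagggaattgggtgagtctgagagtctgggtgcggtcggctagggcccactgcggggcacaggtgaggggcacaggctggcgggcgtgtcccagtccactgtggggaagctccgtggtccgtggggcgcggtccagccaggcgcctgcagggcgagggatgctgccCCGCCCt
Anxa1, chr19:20390672-20390921, minus strand: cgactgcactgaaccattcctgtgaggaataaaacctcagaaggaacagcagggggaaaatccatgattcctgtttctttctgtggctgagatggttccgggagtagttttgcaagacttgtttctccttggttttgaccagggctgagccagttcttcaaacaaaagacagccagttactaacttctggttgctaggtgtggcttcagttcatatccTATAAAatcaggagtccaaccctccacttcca
Both strands were searched for TGANTCA (the AP-1 site), TGTGGT (RUNX), GGGCGG (the GC box) and TATAAA (the TATA box), none of which overlapped another within these 4 windows. The matches differed from gene to gene. S100a4 and Anxa1 each held 1 TATAAA, which ended 25 and 26 bases before the start, and Vim held one 26 bases before its start. S100a6 held TGTGGT at 3 places, 211, 139 and 73 bases before the start, and Lgals3 held only a GC box next to the start. Of the 8 genes with a promoter, TATAAA was found in 4, GGGCGG in 4, TGANTCA in 2 and TGTGGT in 1. The same letters were found in 12.4%, 32.7%, 6.75% and 14.05% of all 32851 RefSeq promoter windows of this length. A match describes the letters and is not evidence of binding.

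The 4 S100 genes lie in 2 pairs on chromosome 3 (GRCm38.p6). S100a4 (Entrez 20198, chr3:90603770-90606045) and S100a6 (20200, chr3:90612894-90614414) are separated by 6849 bases. S100a11 (20195, chr3:93520496-93526288) and S100a10 (20194, chr3:93555117-93564645) are separated by 28829 bases and lie 2906082 bases beyond S100a6. The genes of the first pair were low in naïve cells and those of the second pair were not.

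S100a4 encodes a calcium sensor that binds non-muscle myosin. It had 71.4, 76.4 and 56.4 normalized counts in the 3 naïve YFP- libraries and 35.9, 88.5 and 57.7 in naïve YFP+ libraries. It had 9678, 9245 and 10698 in TEM YFP- and 7459, 5802 and 7393 in TEM YFP+ libraries. Every TEM library was far above every naïve one, and the 3 TEM YFP+ libraries were all below the 3 TEM YFP- libraries. The log2 fold change of TEM over naïve was 7.17 (adjusted p = 1.86e-09, SE 0.25) in YFP- and 6.89 (adjusted p = 2.27e-09, SE 0.25) in YFP+ cells by limma. S100a6, which binds several annexins, had 26.5, 78.5 and 78.3 in naïve YFP- and 49.5, 113 and 95.8 in naïve YFP+ libraries. Its TEM values were 7142, 8971 and 7610.4 in YFP- and 7127, 7371 and 6281 in YFP+ libraries. The YFP- and YFP+ ranges overlapped within each cell type, and naïve YFP- replicate 1 was the lowest of the 12 libraries. The limma log2 fold change was 7.14 (adjusted p = 2.24e-08, SE 0.37) in YFP- and 6.39 (adjusted p = 6.98e-08, SE 0.37) in YFP+ cells. The 95% intervals of S100a4 and S100a6 overlapped in both fractions, so their order is not resolved.

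S100a10, the partner of annexin A2, had 3999, 3557 and 4189 in naïve YFP- libraries and 4152, 3129.6 and 3951 in naïve YFP+ libraries. In TEM cells it had 11788, 13058 and 12155 in YFP- and 12613, 11024 and 12609 in YFP+ libraries. The gene was thus well read in naïve cells and about 3 times as high in TEM cells, with no gap between the YFP fractions. Its log2 fold change was 1.66 (adjusted p = 1.51e-07, SE 0.11) in YFP- and 1.70 (adjusted p = 1.65e-07, SE 0.11) in YFP+ cells by limma. S100a11, the partner of annexin A1, had 1516, 1333 and 1494 in naïve YFP- and 1451, 1301 and 1343 in naïve YFP+ libraries. It had 10245, 12193 and 10729.5 in TEM YFP- and 8155, 11121 and 7682 in TEM YFP+ libraries. Only TEM YFP+ replicate 2 lay within the range of the TEM YFP- libraries. The log2 fold change of TEM over naïve was 2.93 (adjusted p = 5.56e-09, SE 0.13) in YFP- and 2.70 (adjusted p = 1.32e-08, SE 0.13) in YFP+ cells by limma.

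The annexins lay on separate chromosomes and differed in level. Anxa1 (16952, chr19:20373434-20390671, minus strand) encodes annexin A1, known for its anti-inflammatory action through formyl peptide receptors. Per kilobase of exon it was the lowest of the 10 genes in every group. It had 4.61, 10.6 and 6.91 in naïve YFP- and 3.71, 47.2 and 13.95 in naïve YFP+ libraries. In TEM cells it had 431, 388 and 507 in YFP- and 840.2, 522 and 746 in YFP+ libraries. The naïve libraries held 3 to 48 reads each for this gene, and the highest was naïve YFP+ replicate 2. All 3 TEM YFP+ libraries were above the 3 TEM YFP- libraries. The log2 fold change of TEM over naïve was 5.78 (adjusted p = 8.85e-06, SE 0.63) in YFP- and 5.52 (adjusted p = 1.93e-05, SE 0.63) in YFP+ cells by limma, and 6.36 in YFP+ cells without naïve YFP+ replicate 2 (adjusted p = 8.01e-07). Anxa2 (12306, chr9:69453683-69491792, overlapping Mir3109) encodes annexin A2. It had 230.4, 279 and 244 in naïve YFP- and 220.1, 269.6 and 203 in naïve YFP+ libraries. It had 5281, 6913 and 6023 in TEM YFP- and 4491, 6032 and 4639 in TEM YFP+ libraries. The TEM ranges overlapped, but with the same order of replicate numbers in both, number 2 being the highest. The log2 fold change was 4.59 (adjusted p = 8.77e-10, SE 0.15) in YFP- and 4.44 (adjusted p = 1.14e-09, SE 0.15) in YFP+ cells by limma, with the smallest standard error of the genes with a 10-fold or larger difference.

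Ahnak (66395, chr19:8989284-9076935) encodes a scaffold of very large size that supports calcium entry in T cells. With 19938 bases of exon it is the longest of the 10 genes, and it took the most reads in TEM cells. It had 5573, 3999.8 and 4433 in naïve YFP- and 6912, 5628 and 4828 in naïve YFP+ libraries. It had 90557, 74269.9 and 84702 in TEM YFP- and 109021, 87997 and 97921 in TEM YFP+ libraries. The YFP- and YFP+ ranges overlapped within both cell types. The limma log2 fold change was 4.16 (adjusted p = 2.21e-09, SE 0.15) in YFP- and 4.10 (adjusted p = 2.87e-09, SE 0.15) in YFP+ cells. Vim (22352, chr2:13574311-13582826) encodes vimentin, the main intermediate filament protein of lymphocytes. It had 17672, 15304 and 17565 in naïve YFP- and 20567, 17683 and 18597 in naïve YFP+ libraries. It had 28418, 30479.6 and 31974 in TEM YFP- and 34546, 29186 and 35806 in TEM YFP+ libraries. Its log2 fold change, the smallest of the 10, was 0.85 (adjusted p = 2.99e-05, SE 0.11) in YFP- and 0.81 (adjusted p = 6.55e-05, SE 0.11) in YFP+ cells by limma. It was also the only one of the 10 genes whose naïve YFP+ libraries all lay above the naïve YFP- libraries.

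The 2 galectins differed in both level and change. Lgals1 (16852, chr15:78926725-78930465, overlapping Gm30368) encodes galectin-1, a dimeric lectin known to promote T cell death and to be made by activated T cells. It had 2259, 2173 and 2730.3 in naïve YFP- and 3405, 2496 and 3116 in naïve YFP+ libraries. It had 7123, 8734 and 6835 in TEM YFP- and 7767, 6142 and 7326 in TEM YFP+ libraries. The fractions overlapped within each cell type. The log2 fold change was 1.66 (adjusted p = 1.09e-06, SE 0.14) in YFP- and 1.24 (adjusted p = 1.78e-05, SE 0.14) in YFP+ cells by limma. Lgals3 (16854, chr14:47373860-47386167) encodes galectin-3, a lectin that forms oligomers and is also abundant in macrophages. It had 17.3, 32.9 and 23.0 in naïve YFP- and 38.3, 143 and 25.1 in naïve YFP+ libraries. It had 1803, 1509 and 1847 in TEM YFP- and 792, 648 and 737 in TEM YFP+ libraries. Naïve YFP+ replicate 2 was the highest naïve library, and every TEM YFP+ library was below every TEM YFP- library. The log2 fold change of TEM over naïve was 6.12 (adjusted p = 5.58e-07, SE 0.48) in YFP- and 3.78 (adjusted p = 4.38e-05, SE 0.48) in YFP+ cells by limma. Without naïve YFP+ replicate 2 the latter was 4.50 (adjusted p = 1.82e-07).

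**Figure D2:**
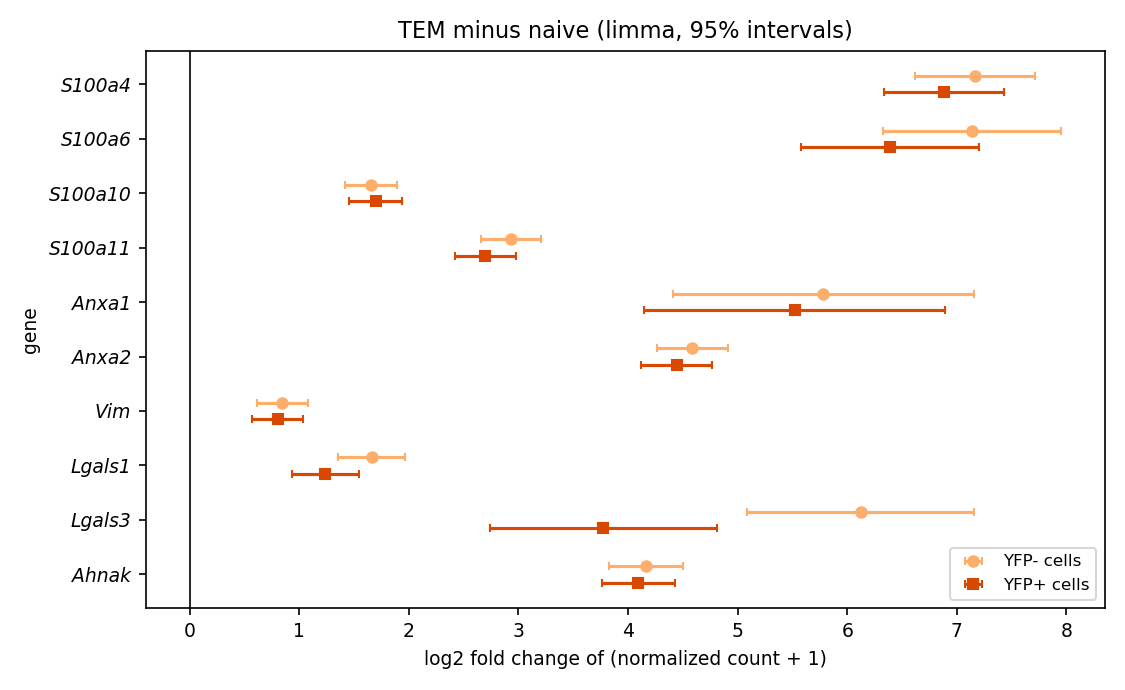
Log2 fold change of TEM over naïve cells (x axis) for the 10 genes (y axis) in YFP- (circles) and YFP+ cells (squares), with 95% intervals from limma. All intervals lie above 0, and the estimates run from 0.81 to 7.17, with Lgals3 showing the largest gap between the fractions (6.12 and 3.78).

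The widest spreads between replicates were those of genes with few reads in naïve cells, but few reads did not always go with a wide spread. The coefficient of variation of the 10 genes ran from 6.92% to 49.1% in naïve YFP-, 5.66% to 105% in naïve YFP+, 5.30% to 13.6% in TEM YFP- and 7.59% to 23.3% in TEM YFP+ libraries. The highest of these, in naïve YFP+ cells, was that of Anxa1. In TEM YFP+ cells the coefficient was 20.7% for S100a11 and 9.97% for Lgals3, which had fewer reads. Together the 10 genes took 0.0620% ± 0.0032 (SD, n = 3) of the reads on genes in naïve YFP- and 0.0689% ± 0.0008 in naïve YFP+ cells. In TEM cells they took 0.393% ± 0.0056 in YFP- and 0.405% ± 0.016 in YFP+ cells. Ahnak alone accounted for 0.192% ± 0.018 and 0.221% ± 0.015 of reads in the TEM groups.

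Divided by exon length, the order of the levels differed between naïve and TEM cells. Exon length was the union of the exons of all annotated transcripts of a gene, whether or not these cells use them. Ranks between genes depend on it, while changes of a gene between groups do not. Per kilobase of exon, naïve YFP- cells had most of Vim (3552 normalized counts per kb), S100a10 (3230), S100a11 (2833) and Lgals1 (2644). Each of these overlapped its neighbour in the order, so their ranks are not resolved. There followed Ahnak (234), S100a4 (117), Anxa2 (67.3), S100a6 (44.7), Lgals3 (13.1) and Anxa1 (2.53), and no neighbours overlapped from Lgals1 downwards. In TEM YFP- cells S100a11 was the highest (21636 per kb) and S100a4 the next (16906), followed by S100a10 (10176), Lgals1 (8376), Vim (6386), S100a6 (5785), Ahnak (4172), Anxa2 (1628), Lgals3 (925) and Anxa1 (152). Only Vim and S100a6 overlapped as neighbours in that order. In TEM YFP+ cells the order of the means was the same, from S100a11 (17585 per kb) to Anxa1 (241). There S100a4 and S100a10, Lgals1 and Vim, and S100a6 and Ahnak overlapped. The highest mean was 1402 times the lowest in naïve YFP- cells and 142 times the lowest in TEM YFP- cells.

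The ratio of known binding partners differed between the cell types as well. Per kilobase, S100a10 was 48.5 ± 8.02 (SD, n = 3) times Anxa2 in naïve YFP- and 6.30 ± 0.53 times in TEM YFP- cells. In YFP+ cells the ratio was 51.3 ± 13.5 in naïve and 7.55 ± 1.67 in TEM libraries. The ranges did not overlap between cell types in either fraction. For S100a11 over Anxa1 the ratio ran from 716 to 1874 in naïve YFP- and from 120 to 179 in TEM YFP- libraries. In YFP+ libraries it ran from 157 to 2227 in naïve and from 55.3 to 121 in TEM cells, with the lowest naïve value in replicate 2. These are ratios of transcripts and not of proteins, and their sizes, though not their change between cell types, depend on the exon lengths used.

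The comparison of YFP+ with YFP- cells asked whether the genes differed with past expression of the Csf2 locus. In TEM cells, 0 of 10 genes passed in limma with all 12 libraries, while 2.3% of all genes tested were higher in YFP+ cells and 4.67% lower. At an unadjusted p of 0.05 or less, 2 of 10 were lower in limma (Lgals3 and S100a11), 2 in edgeR (Lgals3 and S100a4) and 3 in DESeq2 (these 3 genes), and 0 were higher. At that threshold 10.4% of all genes were lower in limma, 9.31% in edgeR and 10.9% in DESeq2, and 6.7%, 8.95% and 7.41% were higher. None passed the adjusted threshold in edgeR or DESeq2. The YFP- and YFP+ libraries did not overlap for 3 of 10 genes, Lgals3 and S100a4 lower and Anxa1 higher in YFP+ cells, against 25% of all genes tested. Lgals3 was 2.37-fold lower in TEM YFP+ cells, with a log2 fold change of -1.24 (adjusted p = 0.175, SE 0.48) and a 95% interval from -2.28 to -0.21 by limma. Between libraries with the same number it was lower by 1.19 to 1.32 on the log2 scale. Its group SD was small in TEM cells (1719 ± 184 and 726 ± 72.3 normalized counts, SD, n = 3), and a limma fit of the 6 TEM libraries alone gave an adjusted p of 0.00105. S100a4 had a log2 fold change of -0.53 (adjusted p = 0.317, SE 0.25), with an interval from -1.07 to 0.02, and an adjusted p of 0.0264 in the fit of the TEM libraries alone. Quantile normalization also brought both genes under the threshold in limma, with adjusted p values of 0.0487 for Lgals3 and 0.0276 for S100a4. The share of all genes called lower was 6.07% in the fit of the TEM libraries alone and 5.17% after quantile normalization. The call for both genes therefore differed between these fits, and the cause was not tested.

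For the other genes in TEM cells the differences were smaller. Anxa1 had a log2 fold change of 0.65 (adjusted p = 0.738, SE 0.63) with an interval from -0.73 to 2.02 by limma. S100a11 had -0.31 (adjusted p = 0.203, SE 0.13) and passed only without TEM YFP+ replicate 2, where the value was -0.48 with an adjusted p of 0.0133 by limma, beside 3.84% of all genes lower in that fit. Anxa2 had -0.27 (adjusted p = 0.424, SE 0.15), and was lower by 0.20 to 0.38 between libraries with the same number. Replicate numbers paired the libraries in this comparison, and with the number as a block in limma Anxa2 passed as lower (adjusted p = 0.0417), which made 1 of 10 genes, beside 6.77% of all genes lower and 5.22% higher in the same fit. It also passed in edgeR with the block, beside 6.45% of all genes lower. With the block 814 genes were higher in YFP+ TEM cells, against 359 without it. Ahnak had 0.24 (adjusted p = 0.522, SE 0.15). S100a6 (-0.19), Vim (0.13), Lgals1 (-0.09) and S100a10 (-0.03) had values closer to 0 on the log2 scale. The sign of Lgals1 and S100a10 changed when TEM YFP+ replicate 2 was left out. The 95% interval of S100a10 ran from -0.27 to 0.21. Between libraries with the same number, S100a4, S100a6, S100a11, Anxa2 and Lgals3 were lower in 3 of 3 pairs, Anxa1 and Ahnak were higher in 3 of 3, and S100a10, Vim and Lgals1 were mixed. How many of all genes kept the same sign in 3 of 3 pairs was not counted, so these signs are a description only.

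**Figure D3:**
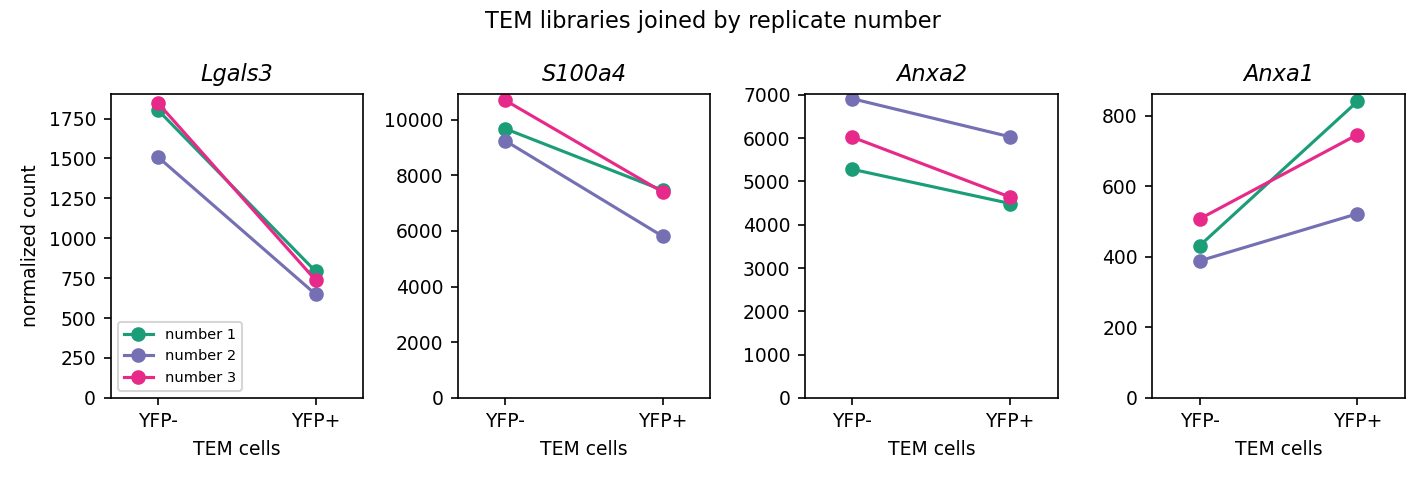
Normalized counts (y axis, from 0) of Lgals3, S100a4, Anxa2 and Anxa1 in the TEM libraries of YFP- and YFP+ cells (x axis), with a line joining libraries that share a replicate number. All lines run downwards for Lgals3, S100a4 and Anxa2 and upwards for Anxa1, and the ranges of the 2 fractions overlap only for Anxa2.

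Marker transcripts of other cells differed between the TEM fractions as well, some lower and some higher in YFP+ cells. In YFP+ against YFP- TEM cells, 7 of 8 conventional dendritic cell markers, 8 of 10 plasmacytoid dendritic cell markers and 4 of 10 macrophage and monocyte markers were lower, and 1 of the latter was higher. Of all genes tested 4.67% were lower and 2.3% higher. The summed level of the macrophage and monocyte markers was 12810, 10622 and 18122 in the TEM YFP- and 12434, 7223 and 11443 in the TEM YFP+ libraries, so that its ranges overlapped. The marker that was higher was Ccr2, a chemokine receptor gene that memory T cells also express, with 1747 to 1955 in TEM YFP- and 4476 to 7709.8 in TEM YFP+ libraries. Without Ccr2, which was left out after its values were seen, the other 9 markers summed to 8875 to 16318 in TEM YFP- and 2747 to 5158 in TEM YFP+ libraries, and the ranges did not overlap. The plasmacytoid dendritic cell sum was 16377 to 25115 in TEM YFP- and 10094 to 11289 in TEM YFP+ libraries, beside 8676 to 9596 in naïve libraries. Pacsin1, Bst2 and Ccr9 carried most of it in naïve and TEM YFP+ libraries. Of these, Ccr9 went against the sum, with 497 to 1218 in TEM YFP- and 1096 to 3405 in TEM YFP+ libraries. The other 7 markers summed to 7800 to 15895 in TEM YFP-, 1750.1 to 2423 in TEM YFP+ and 678 to 1531 in naïve libraries. Siglech, a defining gene of these cells, had 1412 to 3367 in TEM YFP- and 26.9 to 118 in TEM YFP+ libraries and at most 16.7 in naïve libraries. None of the 8 or 10 markers of these lists was at 0 in every library of a TEM group. Of the 8 neutrophil markers, Camp was at 0 in TEM YFP- libraries, and the list's sum was 198 to 403 there and 2326 to 8331 in TEM YFP+ libraries. Nearly all of that sum was Mmp9, a matrix metalloproteinase gene, with 2304 to 8277 in TEM YFP+ libraries. Without Mmp9, the other 7 markers summed to 9.84 to 19.3 in TEM YFP- and 21.7 to 90.0 in TEM YFP+ libraries. These ranges did not overlap, and Mmp9 was left out after its values were seen. Regulatory T cell markers summed to 81438 to 104060 in TEM YFP- and 61682 to 74793 in TEM YFP+ libraries, with 2 of 8 genes lower. The part of these cells in the values of Lgals3, S100a4 and Anxa1 was not tested. In naïve cells the conventional dendritic cell sum was at most 356.

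In naïve cells, 0 of 10 genes passed between YFP+ and YFP- libraries in limma, edgeR or DESeq2, where 0.00642% of all genes tested were higher and 0% lower in limma. At an unadjusted p of 0.05 or less, 2 genes were higher in limma (Lgals3 and Lgals1) and 3 in edgeR and DESeq2 (with Anxa1 added), and 0 were lower. At that threshold 2.49% of all genes were higher in limma, 3.12% in edgeR and 3.71% in DESeq2. Only Vim had groups that did not overlap, 1 of 10 beside 5.38% of all genes. Its log2 fold change was 0.17 (adjusted p = 1.00, SE 0.11) by limma. Lgals3 had 1.10 (adjusted p = 1.00, SE 0.48), which was 0.38 without naïve YFP+ replicate 2, and Anxa1 had 0.91 (adjusted p = 1.00, SE 0.63), which was 0.07 without that library. In that library the macrophage and neutrophil marker sums were the highest of the naïve libraries, and their part in these values was not tested. For Lgals1 the value was 0.33 (adjusted p = 1.00, SE 0.14) and for Ahnak 0.31 (adjusted p = 1.00, SE 0.15). Between libraries with the same number, S100a6, Vim, Lgals1, Lgals3 and Ahnak were higher in 3 of 3 pairs, S100a11 and Anxa2 were lower in 3 of 3, and S100a4, S100a10 and Anxa1 were mixed. Here too the share of all genes with the same sign in 3 of 3 pairs was not counted. For S100a10 and S100a11 the 95% intervals were -0.31 to 0.17 and -0.36 to 0.19 on the log2 scale.

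**Figure D4:**
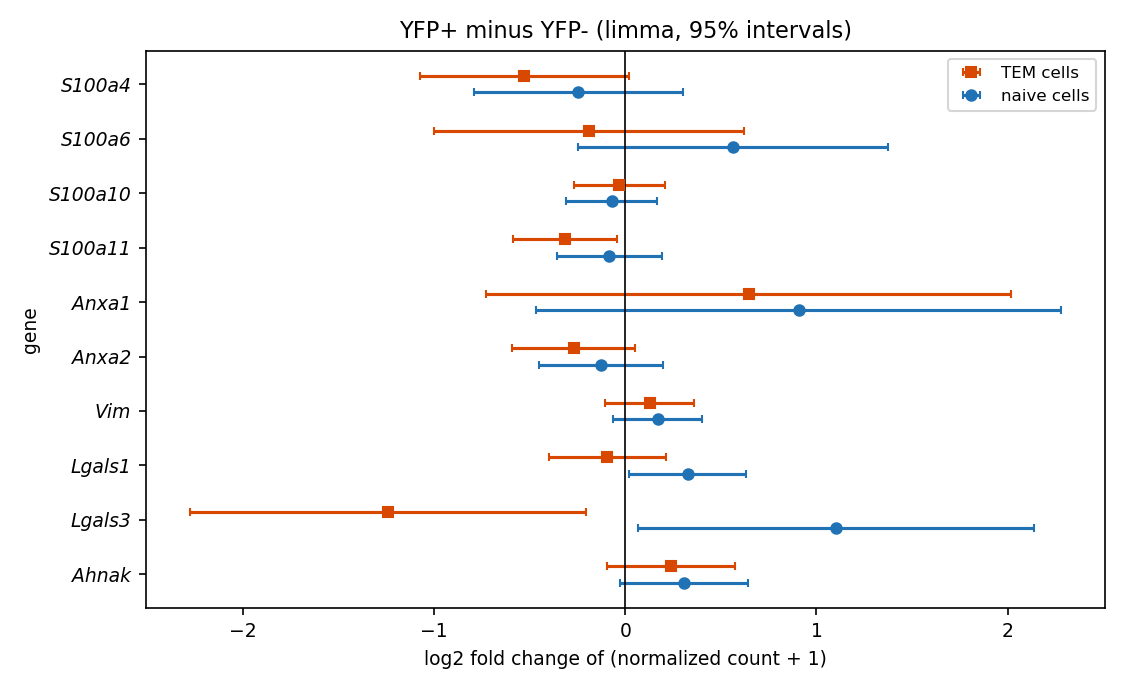
Log2 fold change of YFP+ over YFP- cells (x axis) for the 10 genes (y axis) in TEM (squares) and naïve cells (circles), with 95% intervals from limma. Estimates run from -1.24 to 1.10, with Lgals3 at both ends, and intervals of Anxa1 and Lgals3 are the widest.

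The difference between these 2 YFP effects was tested as an interaction. In limma 0 of 10 genes passed, with 0.828% of all genes tested higher and 2.73% lower. Lgals3 came nearest, with a log2 difference of -2.35 (adjusted p = 0.0912, SE 0.67), and it was the only one of the 10 at an unadjusted p of 0.05 or less in limma, edgeR and DESeq2, where 8.1%, 7.56% and 8.49% of all genes were lower. DESeq2 called it (adjusted p = 0.00137), as did limma without naïve YFP+ replicate 2 (-1.62, adjusted p = 0.0371), without naïve YFP+ replicate 3 (-2.85, adjusted p = 0.0208) and after quantile normalization (-2.21, adjusted p = 0.0256). The value was negative in all of these, and the share of all genes called lower was 4.18% in DESeq2 and 2.3%, 2.7% and 2.94% in the limma fits in that order. The other 9 genes had values between -0.75 and 0.04. The TEM and naïve comparisons of the YFP- and YFP+ fractions share no library, and the same interaction is the difference between them.

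The relatives of these genes were counted in the same way. Of all genes tested, 29.9% were higher and 19.9% lower in TEM than in naïve YFP- cells, and 24.7% and 16.7% in YFP+ cells. The lists are short, and their counts were not tested against these shares. Of 12 other S100 genes, 10 were in the table and 7 had enough reads, and 3 of these were higher in TEM than in naïve cells of each fraction. S100a3, which neighbours S100a4, had 19.7 to 49.9 in TEM YFP- libraries and at most 1 read in any naïve YFP- library, at least 9.61-fold higher against a floor of 3 reads per library. S100a1, a calcium sensor best known from muscle, had 4.61 to 14.98 in naïve YFP- and 32.6 to 60.0 in TEM YFP- libraries, and its log2 fold change was 2.45 (adjusted p = 6.45e-04, SE 0.45) by limma. S100a13, which overlaps S100a1 at its end, had 0.84 (adjusted p = 6.05e-05, SE 0.11) in the same comparison. S100a8 and S100a9, the neutrophil calprotectin genes, did not pass in any comparison by limma and peaked at 69.9 and 158 in naïve YFP+ replicate 2. In TEM cells both were higher in every YFP+ than in every YFP- library, S100a8 with 7.25 to 48.5 against 0 to 1.48 and S100a9 with 16.6 to 89.4 against 0 to 4.45. S100a8 was at least 11.1-fold higher against a floor of 3 reads per library, and the adjusted p in limma was 0.103 for S100a8 and 0.128 for S100a9. Without naïve YFP+ replicate 2, 5 of the 7 S100 genes were higher in TEM than in naïve YFP+ cells. Of all 15587 genes tested, 3330 to 3860 were higher in this comparison without single libraries. S100b and S100g were not analysed here.

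Of 10 other annexins, 7 were tested and 5 were higher in TEM YFP- cells and 4 in TEM YFP+ cells. Of all genes tested 29.9% and 24.7% were higher in these comparisons. Anxa4, which binds membranes in epithelia and elsewhere, had a log2 fold change of 3.64 (adjusted p = 1.12e-07, SE 0.23) and Anxa3 of 4.28 (adjusted p = 0.00363, SE 1.01) in YFP- cells by limma. Anxa9 had 2.22 (adjusted p = 0.0168, SE 0.69), with 2.30 to 15.9 normalized counts in naïve YFP- and 35.7 to 64.0 in TEM YFP- libraries. The abundant Anxa5, Anxa6, Anxa7 and Anxa11 differed by 0.53 or less on the log2 scale. Without TEM YFP- replicate 1, 3 of 7 annexins were higher in YFP- cells. Without naïve YFP+ replicate 3, 2 of 7 were higher in YFP+ cells. Anxa4 was the 1 annexin that passed between YFP fractions, in TEM cells, where 4.67% of all genes were lower in YFP+ cells. It had 757, 794 and 828 in TEM YFP- and 375, 459.8 and 367 in TEM YFP+ libraries, and its log2 fold change was -0.99 (adjusted p = 0.0209, SE 0.23) by limma. The call was lost without any 1 of 5 of the 6 TEM libraries, the exception being TEM YFP+ replicate 2. Anxa8, Anxa10 and Anxa13 were not analysed here.

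Of 9 other galectin and galectin-related genes, not all of which encode galectins, 6 were tested. In TEM YFP- cells 3 were higher and 1 lower, and in TEM YFP+ cells 2 were higher and 1 lower. Of all genes tested 29.9% were higher and 19.9% lower in YFP- cells, and 24.7% and 16.7% in YFP+ cells. Lgalsl, a galectin-related gene, had 3.56 (adjusted p = 2.41e-07, SE 0.25) and Lgals7 had 1.58 (adjusted p = 0.00476, SE 0.39) in YFP- cells by limma. Lgals9, whose product binds TIM-3, was lower in TEM YFP- cells, at -0.54 (adjusted p = 0.00341, SE 0.13), with 6404 to 7928 in naïve YFP- and 4527 to 5183 in TEM YFP- libraries. Of 11 other intermediate filament, lamin and giant scaffold genes, 5 were tested, and 2 were higher and 1 lower in each fraction, beside the same shares of all genes. Lmnb1, which encodes lamin B1 of the nuclear envelope, had 1.496 (adjusted p = 9.68e-08, SE 0.09) and Lmna had 0.91 (adjusted p = 0.0173, SE 0.28) in YFP- cells by limma. Plec, which encodes the linker plectin, had -0.43 (adjusted p = 0.0120, SE 0.12), and its call was lost after quantile normalization. Lmnb1 was also lower in TEM YFP+ than in TEM YFP- cells, at -0.34 (adjusted p = 0.0493, SE 0.09), and this call was lost in edgeR and without several single libraries. Without single libraries the counts of the last list fell to 1 higher or 0 lower. Lgals2, Lgals6, Lgals12, Gfap and Sync were not analysed here.

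**Figure D5:**
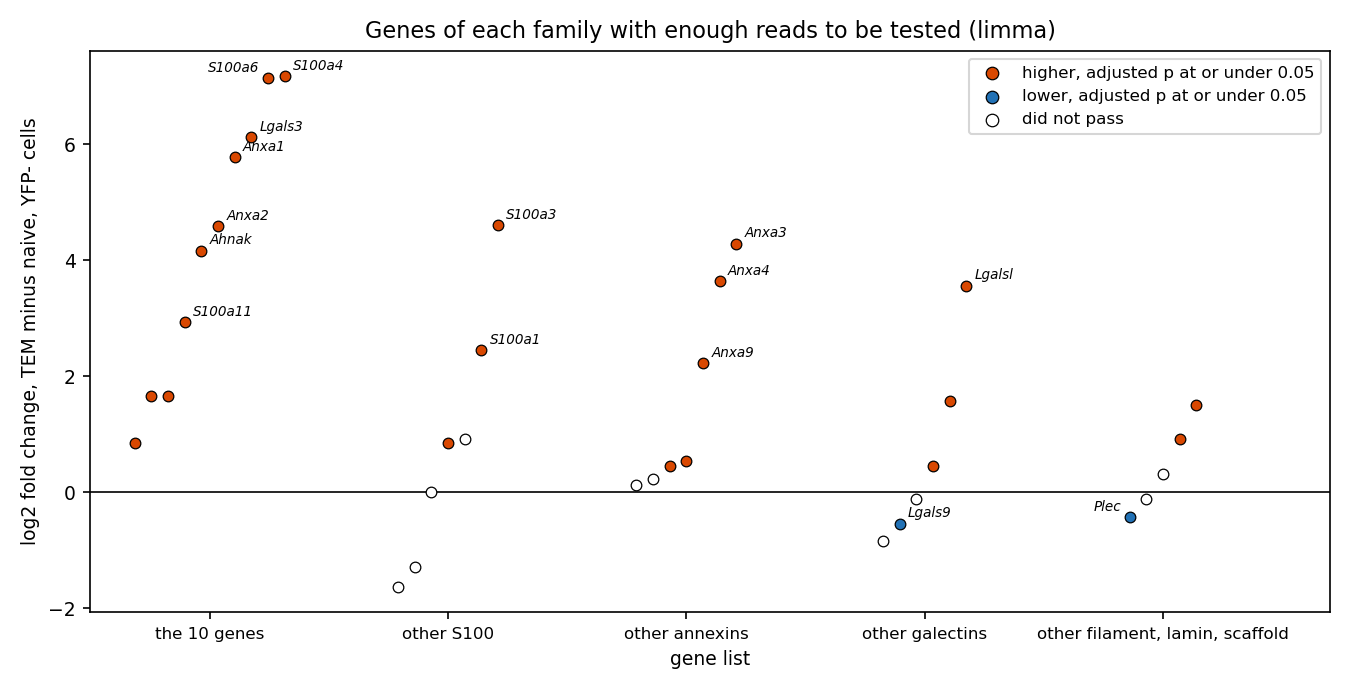
Log2 fold change of TEM over naïve YFP- cells (y axis) for the 10 genes and for the tested genes of 4 lists of relatives (x axis), with 1 point per gene, filled where the adjusted p in limma was 0.05 or less. The 10 genes lie between 0.85 and 7.17, while relatives lie between -1.63 and 4.61 with S100a3, Anxa3, Anxa4 and Lgalsl highest.

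The genes most like these 10 in their pattern over the 12 libraries were found by Pearson correlation with the mean of the standardised log2 values of the 10 genes, among the 11903 genes that averaged 50 or more normalized counts. The 5 highest were Bcl2a1b (r = 0.997), Ccdc50 (r = 0.997), Prr13 (r = 0.997), Bcl2a1d (r = 0.996) and Atp2b4 (r = 0.996). Atp2b4, which encodes a plasma membrane calcium pump, had means of 240 and 269 normalized counts in naïve YFP- and YFP+ cells and 10454 and 11852 in TEM YFP- and YFP+ cells. Bcl2a1b and Bcl2a1d, close copies of an anti-apoptotic gene whose reads can be split between them, had 321 and 96.1 in naïve YFP- and 4677 and 2437 in TEM YFP- cells. The likeness is a description, since the points share the step between naïve and TEM cells, and 1013 of the 11903 genes had a coefficient of 0.95 or more.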

How the data were processed

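CD4+ T cells of the spleen were measured by bulk RNA-seq in 12 libraries, 3 in each of 4 groups. According to the paper's methods, libraries were made with a stranded total RNA kit, reads were mapped to mm10 with DRAGEN and counted on genes with Rsubread. The annotation and the strand setting of the counting are not given in the sources used here, so overlapping genes are named. The deposited signal is normalized counts, which the authors made by scaling raw counts with DESeq2 size factors. Of these values 100% were whole reads after multiplication by the size factor, within a tolerance of 0.01, and 0 columns were left unused.

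Values were analysed as log2 of the normalized count plus 1. The filter asked for 5 normalized counts or more in 3 libraries or more, which 15587 of 17523 genes met. One limma model (version 3.58.1, R version 4.3.3) held a mean for each of the 4 groups, with 8 residual degrees of freedom and a trended eBayes prior. edgeR 4.0.16 and DESeq2 1.42.0 were run on the recovered reads. The scripts were tested on simulated data. RefSeq on GRCm38.p6 named 16749 genes and left 774 without a symbol. Exon lengths were the union of exons over all GENCODE M21 transcripts of a gene, and sequences came from RefSeq.

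The members and gene lists were chosen with earlier results of these data known. Named beside the 10 genes are, from each list of relatives, up to 3 genes with the largest change among those that passed in TEM against naïve YFP- cells, every gene that passed between YFP fractions or in the interaction, genes not in the table, the 5 genes most like the 10, and Cd44, Cd4, Cd3e and Csf2. A further gene of this rule is not reported here. S100a8, S100a9, Anxa5, Anxa6, Anxa7, Anxa11 and the markers Ccr2, Pacsin1, Bst2, Ccr9, Siglech, Mmp9, Camp, Prf1, Eomes and Cd22 were named after their values were seen.

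Libraries with the same replicate number deviated together from their group means. The correlations were 0.180, 0.338 and 0.356 between TEM fractions, 0.306, 0.491 and 0.360 between naïve fractions and 0.168, 0.137 and 0.232 between TEM and naïve YFP- cells, so the numbers pair these libraries, from the data and not from the labels. Between TEM and naïve YFP+ cells they were 0.204, -0.0199 and 0.0561, which is not pairing by this measure. Alternatives were other prior counts, filters, scalings, variance models, tools and thresholds, the replicate block and leaving out each library.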

Additional observations from a re-analysis of the deposited data

How the results depend on the processing

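All 10 genes kept their direction and call in TEM against naïve cells, in 180 of 180 alternative results in each YFP fraction, and 10 of 10 passed without any 1 library. Calls in the YFP comparisons were less stable. In TEM cells 2 of the 10 were lower after quantile normalization and 2 in the fit of only the groups compared (S100a4 and Lgals3 in both), 1 with the replicate block in limma and 1 with it in edgeR (Anxa2 in both), and 0 to 1 without single libraries (S100a11 without TEM YFP+ replicate 2). Of all genes 5.17%, 6.07%, 6.77%, 6.45% and 3.84% were lower in these fits, in that order. In the interaction 1 (Lgals3) was lower after quantile normalization and 1 in DESeq2, beside 2.94% and 4.18% of all genes lower, and 0 to 1 without single libraries. The block changed no other call of the 10 genes. Values near 0 changed sign. In TEM cells S100a10 became 0.00097 with TMM factors and 0.0020 in edgeR, and ran from -0.064 to 0.033 without single libraries, while Lgals1 ran from -0.16 to 0.014. In naïve cells S100a4 ran from -0.56 to 0.081 and S100a10 from -0.15 to 0.052 without single libraries. In the interaction, quantile normalization gave -0.033 for S100a10 and 0.24 for Anxa1. Without single libraries the interaction ran from -0.61 to 0.033 for S100a4, -0.084 to 0.12 for S100a10, -1.10 to 0.58 for Anxa1, -0.10 to 0.047 for Vim and -0.20 to 0.067 for Ahnak.

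Counts over all genes tested moved more. For TEM against naïve YFP- cells, 4665 genes were higher and 3104 lower. A fold threshold of 2 left 2480 and 270, a threshold of 1 left 819 lower, and quantile normalization gave 5925 lower. For YFP+ cells, with 3849 and 2604, a threshold of 1 left 2538 higher and 781 lower, a threshold of 2 left 1762 and 258, and quantile normalization gave 4626 lower. For YFP+ against YFP- TEM cells, with 359 and 728, the count higher was 686 after quantile normalization, 814 with the replicate block, 569 in DESeq2, 1093 in edgeR with the block, 203 and 113 with thresholds of 1 and 2, and 202 to 420 without single libraries. The count lower was 430 with a threshold of 2, and 414 to 666 without single libraries. In naïve cells, with 1 and 0, the count higher was 2 with a prior of 0.1. It was 2 with the block in limma, 2 with the block in edgeR and 9 in DESeq2. It was 0 with only the groups compared, 0 with a threshold of 2, and 0 to 1 without single libraries. The count lower was 1 with a prior of 0.1, 1 with TMM factors, 1 in edgeR, 5 in DESeq2, 4 with the block in limma and 4 with it in edgeR. In the interaction, with 129 and 425, the count higher was 80 with a prior of 0.1, 223 after quantile normalization, 293 with the block, 206 in DESeq2, 315 in edgeR with the block, 63 with a threshold of 2, and 68 to 174 without single libraries. The count lower was 638 in DESeq2, and 205 to 421 without single libraries. The cause was not tested. With 3 libraries per group and few reads in naïve cells, the intervals of Anxa1 and Lgals3 are wide, and a value that missed the threshold is not shown to be 0.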

Other observations

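Other marker lists were read in the same limma fit and bear on the labels of the sort. All 8 effector memory markers and all 8 regulatory T cell markers were higher in TEM cells of both fractions, beside 29.9% of all genes in YFP- and 24.7% in YFP+ cells. In YFP+ against YFP- TEM cells, 5 of the 7 NK cell markers tested were higher, beside 2.3% of all genes. The summed level of the NK cell markers was 933 to 1180 in TEM YFP- and 3823 to 6140 in TEM YFP+ libraries, beside 2946 to 4542 in naïve libraries. Nearly all of the naïve sum was Prf1 and Eomes, which T cells also express. Without these, a choice made after their values were seen, the other 5 markers summed to 4.61 to 79.7 in naïve, 305 to 363 in TEM YFP- and 2530 to 3655 in TEM YFP+ libraries. The 10 B cell markers summed to 2327 to 3414 in TEM YFP- and 1516 to 2211 in TEM YFP+ libraries. Most of the sum in TEM YFP- libraries was Cd22, with 1842 to 2763 there and 890 to 1124 in TEM YFP+ libraries. The lower sum is thus that of Cd22 and not of the list. The median log2 fold change of the 10 markers was 1.42 in YFP+ against YFP- TEM cells. Of these markers 2 passed as higher and 0 as lower in YFP+ cells. None of the 5 erythroid and platelet markers tested passed in any comparison.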
